A study of Mus musculus with 6 samples.

Results

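Genes of a set named bone fibrillar collagens were followed in sorted mouse osteocytes, the cells embedded in bone matrix. They are Col1a1 and Col1a2 (collagen I), Col3a1 (collagen III), Col5a1 and Col5a2 (collagen V), Col22a1 (collagen XXII) and Col24a1 (collagen XXIV). All probe sets whose platform annotation named 1 of these genes and no other were taken, which gave 16 probe sets for 7 genes among 18193 genes with a probe set. A probe set is the group of short probes that together give 1 signal for a transcript. Whether mRNA of these collagens differs without estrogen receptor alpha (ERα, encoded by Esr1) was the question asked of them.

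Fibrillar collagens are chains that wind into a triple helix, are trimmed outside the cell and align into cross-linked fibrils. Collagen I, a trimer of α1 and α2 chains, is the main protein of bone matrix and carries its mineral. Collagens III and V join collagen I fibrils in many connective tissues, and collagen V is known to set where fibrils start and how thick they grow. Collagen XXII, though in this set, is classed as a fibril-associated and not a fibril-forming collagen. It is known from tissue junctions such as that of muscle and tendon, and collagen XXIV from forming bone.

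RNA of 6 arrays was compared, 3 from osteocytes lacking ERα and 3 from control littermates. All mice were female, of strain C57/BL6 and 10 to 12 days old, and cells were sorted for green fluorescent protein driven by Dmp1, an osteocyte gene. The labels call the controls wild type, yet floxed mice appear in the protocol for extraction. The sources used here do not give the driver of the Cre recombinase or whether controls carried it, so Cre and ERα loss cannot be told apart. The series design says RNA was not pooled, while the protocol speaks of pooled calvarial tissue. If tissue was shared, the p-values measure only the spread between these samples.

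Of 11 osteocyte markers 10 were above the level filter, 2 of them above and 8 below control. The 11 summed to 16510 to 20289 in control and 16159 to 21202 in knockout arrays. Dmp1 had deposited signals of 5637 to 7983 over the 6 arrays and differed by -0.30 ± 0.10 (SE), with groups overlapping. Sost was at 54.4 to 147.3, Mepe at 14.3 to 60.7 and Fgf23 at 0.5 to 10.4. The skeletal muscle markers summed to 198.9 in control replicate 2, against 38809 and 33134 in control replicates 1 and 3 and 4540 to 21805 in knockout arrays. Fibroblast and tendon markers, from cells that also make collagens I, III and V, summed to 8073 to 10606 in control and 9516 to 12485 in knockout arrays, with 3 of 9 tested genes above and 6 below control. Osteoblast markers summed to 23673 to 26745 and 25814 to 30079, and no gene of these lists was at 0 on all arrays. Array medians ran from 18.7 to 28.6, the highest in knockout replicate 3. The brightest of 3 Esr1 probe sets differed by -0.20 ± 0.12 (SE) with overlapping groups. As the mean of all its probe sets Esr1 was at -0.40 (limma, adjusted p = 0.398). Since the position of the probes is not given, neither value checks a label.

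Promoters are shown because ERα can act by binding DNA near the genes it regulates. RefSeq windows of 250 bases before the transcript start (GRCm38.p6) were found for 4 of the 7 genes, Col1a2, Col3a1, Col5a1 and Col24a1. Capitals mark every match to 7 motifs searched on both strands: the estrogen response element (GGTCA and, after any 3 bases, TGACC), its single arm GGTCA, which is part of that element, the AP-1 site TGANTCA, the cyclic AMP response element TGACGTCA, the CCAAT box CCAAT, the GC box GGGCGG and the TATA box TATAAA. The first window is that of a collagen I chain, and the second the only 1 of the 4 with matches to the single arm.
Col1a2, chr6:4505368-4505617, + strand: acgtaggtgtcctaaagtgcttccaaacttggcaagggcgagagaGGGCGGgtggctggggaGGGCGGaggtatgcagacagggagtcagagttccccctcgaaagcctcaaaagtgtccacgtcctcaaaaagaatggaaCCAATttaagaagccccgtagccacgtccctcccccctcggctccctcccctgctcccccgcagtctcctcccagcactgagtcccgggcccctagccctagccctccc
Col24a1, chr3:145292222-145292471, + strand: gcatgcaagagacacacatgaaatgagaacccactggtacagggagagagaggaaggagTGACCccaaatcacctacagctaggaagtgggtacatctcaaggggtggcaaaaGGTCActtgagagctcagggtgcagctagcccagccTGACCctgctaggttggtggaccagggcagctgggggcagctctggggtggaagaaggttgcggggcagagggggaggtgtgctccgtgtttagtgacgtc

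The Col1a2 window held 2 GC boxes and 1 CCAAT box, and the Col24a1 window 3 single arms. Of 32851 windows of this length, 32.7% held a GC box, 33.8% a CCAAT box and 35.2% a single arm. Col5a1 had 2 GC boxes and Col3a1 had 1 TATA box, which 12.4% of windows held. The whole estrogen response element was in 0 of the 4 windows and in 0.0639% of all, the AP-1 site in 0 and 6.75%, and the cyclic AMP response element in 0 and 1.55%. These are matches of letters, not binding sites.

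None of the 7 collagens differed between the genotypes past the test. By limma, 0 of 7 passed an adjusted p under 0.05, as did 0% of the 10916 tested genes as higher and 0% as lower, and 0 of 7 had an unadjusted p under 0.05, against 10.5% of tested genes. Log2 differences (knockout minus control) ran from -0.13 for Col5a2 to 0.04 for Col3a1, with a median of -0.06, beside -0.01 over all tested genes. Control and knockout arrays overlapped for 7 of 7 collagens. Among tested genes 9.23% had all knockout arrays above all controls and 7.76% all below, 17.0% together. Without control replicate 2 the fit called 86 genes higher and 210 lower, and 0 of the 7 collagens. Col3a1 lay above control and the other 6 below. With the deposited scaling 7 of 7 lay above 0 at a median of 0.09, where the median of all genes was 0.14, and with median scaling 7 of 7 lay below it. Levels are log2(signal + 16) after quantile normalisation, so fold changes are on that scale, and in bulk RNA fewer cells of a type and less RNA per cell cannot be told apart.

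Most of these probe sets read at the top of the arrays. A probe set was called near saturation when its deposited signal was among the highest 1% of 45037 on each of the 6 arrays, which held for 9 of the 16. The sources used here do not give the scanner's limit. Of the 9, 6, both of Col1a1, a pair of Col1a2 and the brighter of Col3a1 and of Col5a2, read 62.1% to 93.5% of the highest signal on their array. The other 3, of Col3a1, Col5a1 and Col5a2, read 22.7% to 41.5%. No probe set of Col22a1 or Col24a1 was in this class.

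**Figure D1:**
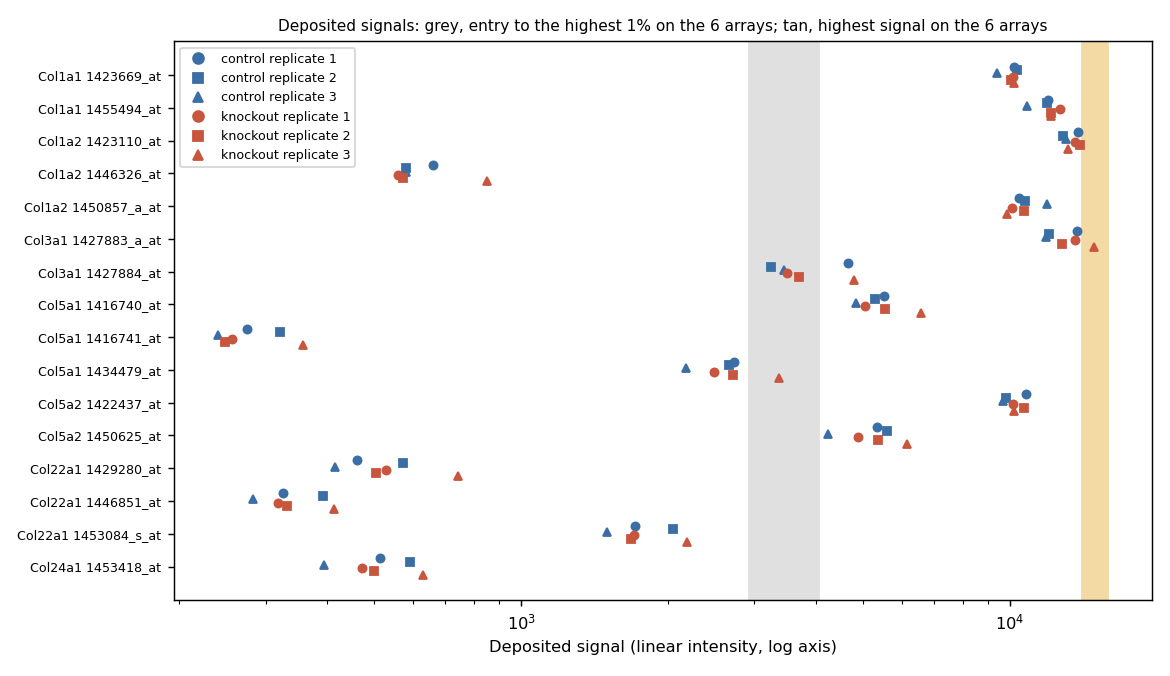
Deposited signal (x axis, linear intensity on a log scale) of each of the 16 probe sets on the 6 arrays; the grey band spans the entry to the highest 1% of signals and the tan band the highest signals of the arrays. Col1a1, Col1a2, Col3a1 and Col5a2 each have a probe set close to the tan band, while Col22a1 and Col24a1 lie left of the grey band.

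Col1a1 encodes the α1 chain of collagen I. Its brightest probe set, 1455494_at, had deposited signals of 11966, 11892 and 10818 on the control arrays, against 12634, 12093 and 12115 on the knockout arrays, given here and later in the order of replicates 1, 2 and 3. After normalisation these were levels of 13.52, 13.60 and 13.56 against 13.55, 13.57 and 13.40, so the groups overlapped and knockout replicate 3 was lowest. The ratio of knockout to control was 0.964, with a 95% confidence interval of 0.863 to 1.08 (limma, adjusted p = 0.825). The second probe set, 1423669_at, had levels of 13.29, 13.40 and 13.38 against 13.25, 13.31 and 13.12 and a difference of -0.13 ± 0.07 (SE). Knockout replicate 3 was again the lowest array, and without it the difference of the brightest probe set was 0.0038.

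Col1a2 encodes the α2 chain. Probe set 1423110_at had signals of 13763, 12817 and 13012 on the control arrays, against 13575, 13869 and 13146 on the knockout arrays. Its levels were 13.74, 13.71 and 13.74 against 13.66, 13.71 and 13.53, and control replicate 2 and knockout replicate 2 met at the same value. The ratio was 0.936 (95% confidence interval 0.843 to 1.04, limma, adjusted p = 0.636). Probe set 1450857_a_at, also near saturation, had 13.32, 13.45 and 13.67 against 13.24, 13.37 and 13.04. Its difference of -0.26 ± 0.11 (SE) had an unadjusted limma p of 0.0404 and an adjusted p of 0.452 in the fit of 27023 probe sets, and it was the 1 of 16 under 0.05, against 10.6% of all. The third, 1446326_at, read 3.66% to 5.36% of the array maximum, so far from the ceiling, and differed by -0.06 ± 0.10 (SE). Over the 16 probe sets, 0 passed an adjusted p under 0.05, as did 0% of all, and the groups were apart for 0, against 16.7% of all.

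Col3a1 encodes the single chain of collagen III, abundant in soft connective tissue. Probe set 1427883_a_at had signals of 13670, 12026 and 11850 on the control arrays, against 13576, 12793 and 14820 on the knockout arrays. Levels were 13.71, 13.64 and 13.66 against 13.67, 13.66 and 13.79, with knockout replicate 3 highest and the remaining 5 arrays within the same range. The ratio was 1.02 (95% confidence interval 0.926 to 1.13, limma, adjusted p = 0.878). The dimmer 1427884_at had 12.14, 11.78 and 11.96 against 11.79, 11.90 and 11.96 and differed by -0.07 ± 0.10 (SE), so the signs of both probe sets differed. Without knockout replicate 3 the brighter probe set was at -0.0093.

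Col5a1 and Col5a2 encode the α1 and α2 chains of collagen V. The brightest Col5a1 probe set, 1416740_at, had signals of 5514, 5287 and 4837 on the control arrays, against 5055, 5549 and 6574 on the knockout arrays. Its levels were 12.40, 12.45 and 12.46 against 12.29, 12.49 and 12.45, a ratio of 0.982 (95% confidence interval 0.870 to 1.11, limma, adjusted p = 0.926). Highest and lowest levels were both in knockout arrays. The other probe sets differed by 0.01 ± 0.08 (1434479_at) and -0.10 ± 0.13 (1416741_at, SE), the latter with control replicate 2 highest at 8.49 and the other 5 arrays between 8.11 and 8.23.

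For Col5a2, probe set 1422437_at had signals of 10775, 9785 and 9678 on the control arrays, against 10132, 10672 and 10174 on the knockout arrays. Its levels were 13.38, 13.33 and 13.43 against 13.26, 13.36 and 13.12. Knockout replicate 3 was lowest, knockout replicate 2 lay among the controls, and the ratio was 0.911 (95% confidence interval 0.803 to 1.03, limma, adjusted p = 0.581). The second probe set, 1450625_at, had 12.36, 12.54 and 12.27 against 12.26, 12.44 and 12.36, a difference of -0.04 ± 0.09 (SE).

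Col22a1 was read by 3 probe sets with room above them. The brightest, 1453084_s_at, whose suffix marks probes that can match more than 1 transcript, had signals of 1713, 2043 and 1496 on the control arrays, against 1700, 1675 and 2179 on the knockout arrays. Its levels were 10.71, 11.09 and 10.78 against 10.76, 10.77 and 10.78. The SD was 0.010 over the knockout arrays and 0.204 over the controls, where replicate 2 lay far above the rest. The ratio was 0.941 (95% confidence interval 0.788 to 1.12, limma, adjusted p = 0.810). Probe sets 1446851_at and 1429280_at differed by -0.05 ± 0.13 and 0.12 ± 0.13 (SE), so they lay on either side of 0, and control replicate 2 was highest on both.

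Col24a1 had 1 probe set, 1453418_at. Its signals were 515.0, 591.6 and 395.0 on the control arrays, against 471.5, 499.1 and 629.4 on the knockout arrays. Levels were 8.99, 9.34 and 8.88 against 8.96, 9.07 and 9.01, so control replicate 2 was highest and control replicate 3 lowest. The ratio was 0.958, with the widest of the 7 intervals (95% confidence interval 0.775 to 1.18, limma, adjusted p = 0.898). Without control replicate 2 the differences turned to 0.075 for Col24a1 and 0.028 for Col22a1. That array held the least skeletal muscle RNA, as given above. It was also lowest in summed fibroblast and tendon (8073), chondrocyte (1269) and endothelial (411) markers, and highest in macrophage markers (7772). The part of these cell types in the Col22a1 and Col24a1 values was not tested.

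**Figure D2:**
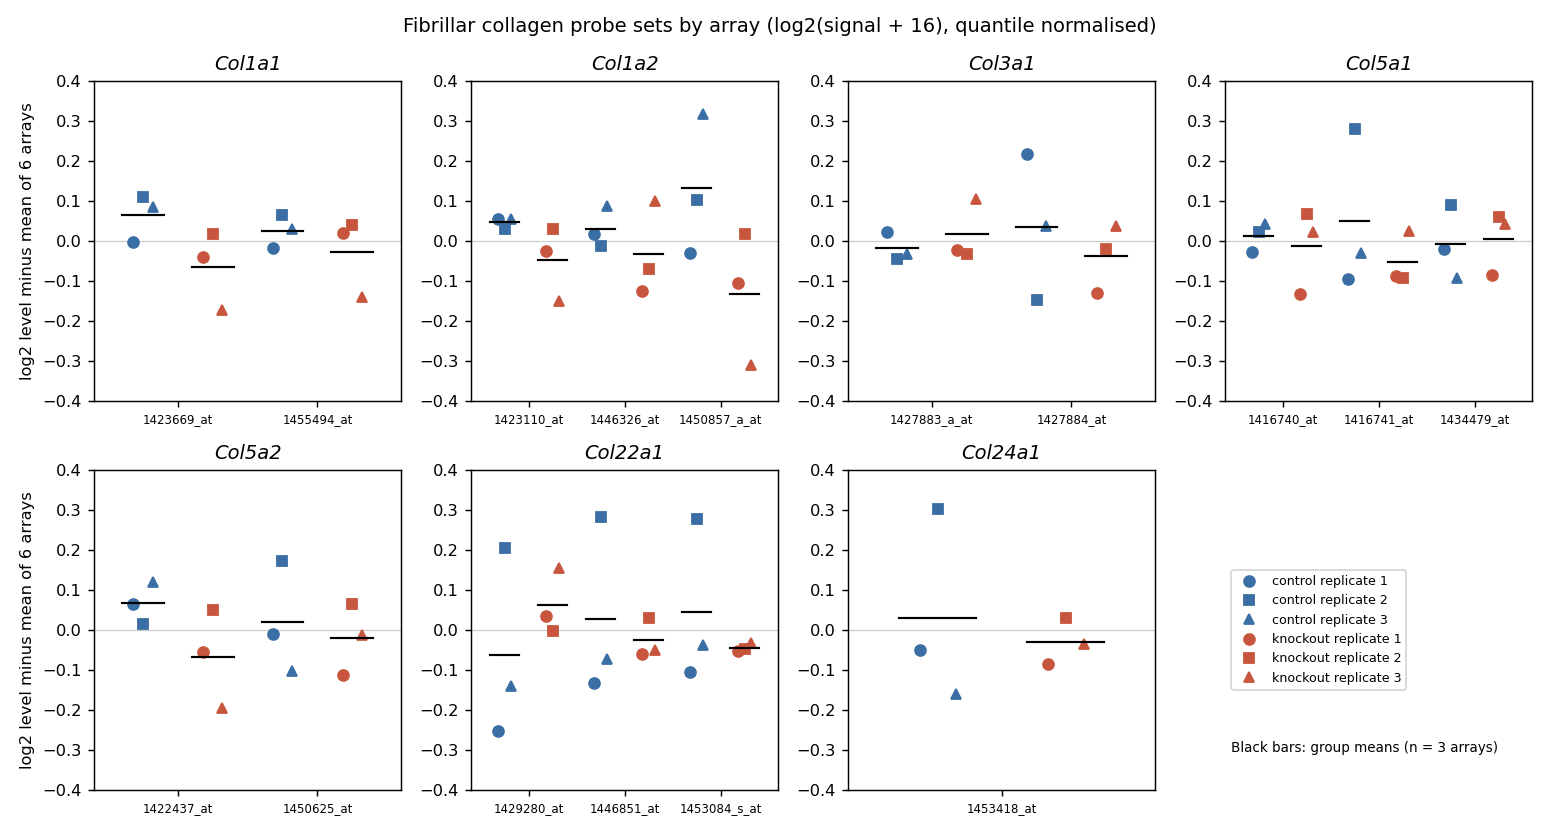
Level of each probe set on each array, as log2(signal + 16) after quantile normalisation minus its mean over the 6 arrays (y axis), with 1 panel per gene, blue for control, red for knockout and black bars for group means (n = 3 arrays). Control replicate 2 stands highest on all 4 probe sets of Col22a1 and Col24a1, and knockout replicate 3 lowest on both Col1a1 probe sets.

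The arrays ordered the bright and the dim probe sets differently. By level, control replicate 2 was highest on 9 of the 16 probe sets, 6 of them among the 7 not near saturation. Knockout replicate 3 was lowest on 5, all near saturation. In deposited signals, knockout replicate 3 was highest on 11 of 16, including 7 of 7 below the near-saturation class. Its signal was 1.28 times that of the other 5 arrays in the median tested probe set outside that class. In the 73 probe sets that ranked in the first 100 on every array the median was 1.13 times. In the other 306 of the highest 1% it was 1.25 times, close to the value outside the class. For Col1a1 the signal was 1.02 times for each of both probe sets, for 1423110_at of Col1a2 0.981 and for 1422437_at of Col5a2 0.998. Against these stood 1.16 for 1427883_a_at of Col3a1, 1.43 for the dim 1446326_at of Col1a2 and 1.28 for Col24a1. The near-saturation probe sets 1427884_at of Col3a1, 1416740_at of Col5a1 and 1450625_at of Col5a2 were at 1.31, 1.25 and 1.22. The near-saturation class thus did not read alike on that array. The remaining collagen I probe set, 1450857_a_at, was at 0.917 times there and highest on control replicate 3. Thus 3 of the 5 collagen I probe sets read within a few percent of the other arrays on knockout replicate 3, 1 read lower and 1 higher. Whether the probes had reached their ceiling was not tested.

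The spread between replicates was compared over the probe sets that stand for each gene. The SD within groups was 0.060 for Col3a1, 0.066 for Col1a2, 0.075 for Col1a1, 0.079 for Col5a1 and 0.095 for Col5a2, on the log2 scale. Between 4.10% and 16.1% of tested genes had a smaller SD than these 5 collagens. It was 0.144 for Col22a1 and 0.176 for Col24a1, close to the median of 0.166 over tested genes. Among probe sets at ranks 1 to 100 the median SD was 0.050, in the rest of the highest 1% 0.081, and in other tested probe sets 0.191. The collagen probe sets did not all follow that order. Near saturation, 1450857_a_at of Col1a2 had an SD of 0.170, 1427884_at of Col3a1 0.142 and 1450625_at of Col5a2 0.117, while the dim 1446326_at of Col1a2 had 0.090 and 1434479_at of Col5a1 0.085.

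**Figure D3:**
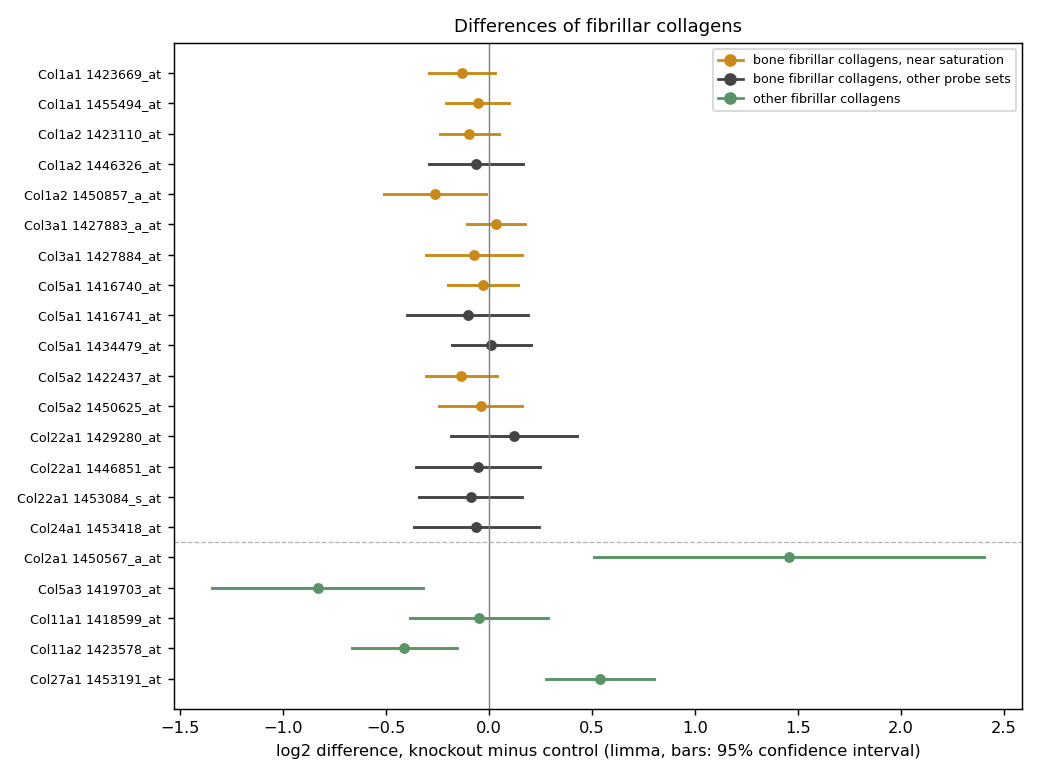
Log2 difference, knockout minus control (x axis), with 95% confidence intervals from limma for the 16 probe sets and, below the dashed line, for 5 other fibrillar collagen genes. The 16 points lie between -0.26 and 0.12, while Col2a1 lies at 1.46 and Col5a3 at -0.83.

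Pairs of collagens were compared within each array, as the log2 ratio of 2 levels on the same array. All 6 ratios hold at least 1 probe set near saturation, Col1a1 in 5 of them, so they compare readings of these probe sets and not amounts of the chains. The ratio of Col1a1 to Col1a2 moved by 0.04 between genotypes, with an exact permutation p of 0.3 (2-sided). That of Col5a1 to Col5a2 moved by 0.11 (exact permutation p = 0.2). Relative to Col1a1, Col3a1 moved by 0.09, Col5a1 by 0.03, Col22a1 by -0.04 and Col24a1 by -0.0091 (exact permutation p from 0.6 to 1.0). The 6 ratios overlapped between groups, and the smallest adjusted p over them was 0.84. The smallest p that 3 arrays against 3 can give is 0.1. The Col3a1 to Col1a1 ratio was 0.40 in knockout replicate 3 and between 0.04 and 0.19 on the other arrays, and without that replicate its difference was -0.013.

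How collagens varied together across the 6 arrays was described for the 3 pairs with the strongest r of either sign after quantile normalisation. High values thus follow from the choice. The chains of collagen I had 0.84 with each other, and those of collagen V 0.24. Of the 3 pairs, Col1a1 and Col3a1 turned with the scaling. Their Pearson's r was -0.99 after quantile normalisation, 0.93 with median scaling and 0.63 with the deposited scaling. Quantile normalisation sets a level from the rank on the array, and these genes ranked between 2 and 33 out of 45037. Col1a2 and Col5a2 had an r of 0.97, 0.99 and 0.90 under the same 3 scalings. Col22a1 and Col24a1 had 0.90, 0.91 and 0.97, and -0.12 without control replicate 2. Each r is of the brightest probe sets, and others differed after quantile normalisation. The brightest of Col1a2 had 0.13 with 1450625_at of Col5a2, and the Col5a2 probe sets had 0.025 with each other. The brightest of Col1a1 had -0.43 with 1427884_at of Col3a1. Col24a1 had 0.94 with 1446851_at and 0.64 with 1429280_at of Col22a1. These values describe 6 arrays that share 1 normalisation and carry no test.

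Genes whose levels ran most like each collagen over the 6 arrays were picked by the highest r among 10916 tested genes, so high values follow from the choice. They were Tfpt and Ust for Col1a1 (r = 0.98 each), Cep131 and Nfrkb for Col1a2 (0.99 and 0.98), Sorbs3 and Scrib for Col3a1 (0.98 and 0.97), Zdhhc8 and Acot8 for Col5a1 (0.99 each) and Odf2l and Kifbp for Col5a2 (0.98 each). Col22a1 had Cspg5 and Cpz (0.99 each), the latter a carboxypeptidase of the extracellular space. Col24a1 had Mmp23, a matrix metalloproteinase, and Tmtc2 (0.99 each). With median scaling Sorbs3 and Scrib turned to -0.77 each, and Zdhhc8 and Acot8 dropped to 0.67 and 0.63. With the deposited scaling Ust was at 0.11, Cep131 at 0.37, Nfrkb at 0.29, Odf2l at 0.31 and Kifbp at 0.60. Tfpt, Cpz, Mmp23 and Tmtc2 stayed between 0.96 and 0.99 under both, and Cspg5 was at 0.87 and 0.93. No r of these genes was computed with an array left out. Whether control replicate 2 carries those of Col22a1 and Col24a1 was thus not tested.

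The 5 other fibrillar collagen genes differed by -0.83 to 1.46; 0 of 5 passed an adjusted p under 0.05 by limma, and 4 of 5 had an unadjusted p under 0.05, against 10.5% of tested genes. Their median difference was -0.05, with 2 above and 3 below control. Col5a3, the third chain gene of collagen V, had levels of 8.58, 7.91 and 8.76 on the control arrays, against 7.48, 7.49 and 7.78. All knockout arrays were below all controls, at a ratio of 0.562 (95% confidence interval 0.395 to 0.801, limma, adjusted p = 0.315). Without control replicate 2 it passed, at -1.08 (limma, adjusted p = 0.0135), in a fit that called 1.92% of tested genes lower. With any other array left out it did not pass (limma, adjusted p from 0.316 to 0.72). As the mean of all its probe sets it was at -0.46. Pericyte and smooth muscle markers lay below control for 9 of 10 genes, with summed signals of 13216 to 17628 in control and 10981 to 13321 in knockout arrays, and their part in Col5a3 was not tested.

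Col27a1, a fibrillar collagen known from cartilage, had 7.92, 8.01 and 7.69 in control and 8.46, 8.44 and 8.34 in knockout arrays. The groups were apart at a ratio of 1.45 (95% confidence interval 1.21 to 1.75, limma, adjusted p = 0.24). Col27a1 passed without control replicate 2 (0.60, limma, adjusted p = 0.0436), where 0.788% of tested genes were called higher. With any other array left out it did not pass (limma, adjusted p from 0.194 to 0.697). Col2a1, the main collagen of cartilage, stood at 2.75 times control (limma, adjusted p = 0.329). Col11a1 and Col11a2, chains that join it, differed by -0.05 and -0.41. For Col11a2 all knockout arrays were below all controls (limma, adjusted p = 0.316), the other way from Col2a1. Chondrocyte markers, Col2a1 among them, lay above control for 12 of 12 genes, with summed signals of 1269 to 3862 in control and 4670 to 7322 in knockout arrays (972.2 to 2840 and 3371 to 5403 without Col2a1), and their part in Col27a1 was not tested.

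Collagen-handling genes were taken from lists chosen with earlier results of these data known, and 0 passed an adjusted p under 0.05 by limma in any list. Over all tested genes 10.5% had an unadjusted p under 0.05 and 17.0% had groups apart, the shares to read beside each list's counts, which are small. Of 17 tested genes for folding and hydroxylation, 9 lay above and 8 below control, with a median of 0.02 and 5 with an unadjusted p under 0.05. P4ha1 and P4ha2, subunits of the prolyl hydroxylase that stabilises the helix, differed by -0.30 ± 0.14 and -0.38 ± 0.14 (SE), with groups overlapping. P4ha3, another such subunit, went the other way, at deposited signals of 46.6 to 157.9. Its levels were 6.07, 6.89 and 6.13 in control and 7.09, 7.09 and 7.13 in knockout arrays, with groups apart (difference 0.74 ± 0.22, SE). P4ha3 passed without control replicate 2 (1.00, limma, adjusted p = 0.0103), where 0.788% of tested genes were called higher. With any other array left out it did not pass (limma, adjusted p from 0.362 to 0.733). Serpinh1, the procollagen chaperone HSP47, had 13.15, 13.22 and 13.05 against 12.87, 12.96 and 12.98 and differed by -0.20 ± 0.07 (SE), also with groups apart, and by -0.0058 with the deposited scaling.

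For export of procollagen from the endoplasmic reticulum, 3 of 7 tested genes lay above and 4 below control (median -0.09, 1 with an unadjusted p under 0.05). Trappc2 and Mia3, both needed for export of large procollagen, differed by -0.26 ± 0.10 and -0.17 ± 0.08 (SE), and by -0.12 and -0.0072 with the deposited scaling. For propeptide cleavage, 4 of 4 tested genes lay below control (median -0.08, 1 with an unadjusted p under 0.05). Among them Bmp1, the procollagen C-proteinase, had 9.58, 9.43 and 9.55 against 9.31, 9.28 and 9.28 (difference -0.23 ± 0.08, SE, and -0.069 with the deposited scaling). Pcolce, its enhancer, differed by -0.07 ± 0.05 (SE), and by 0.09 with the deposited scaling.

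Of the lysyl oxidase genes, which cross-link fibrils, 2 of 4 lay above and 2 below control (median 0.04, 2 with an unadjusted p under 0.05), with Loxl1 at 0.33 ± 0.13 and Loxl3 at -0.23 ± 0.09 (SE). With the deposited scaling Loxl3 was at -0.082. Collagen receptors and uptake genes lay above control for 3 of 6 and below for 3 (median 0.01, 1 with an unadjusted p under 0.05). Ddr1, a receptor kinase for collagen, differed by 0.32 ± 0.13, and Itga1, an integrin chain that binds collagen, by -0.44 ± 0.20 (SE). As the mean of all their probe sets they were at 0.071 and -0.16, and with the deposited scaling at 0.47 and -0.29. Collagen-cleaving proteases lay above control for 4 of 5 (median 0.20, 1 with an unadjusted p under 0.05). Mmp9 stood at 2.92 times control (limma, adjusted p = 0.203). It passed with the deposited scaling (limma, adjusted p = 0.000112), where 0.275% of tested genes were called higher and the median of all was 0.135. Under the other settings run Mmp9 did not pass (limma, adjusted p from 0.0518 to 0.66). Mmp13, a collagenase, differed by 0.20 ± 0.10 (SE) and by 0.39 with the deposited scaling. Osteoclast markers, Mmp9 among them, summed to 4041 to 5862 in control and 6474 to 7167 in knockout arrays. Without Mmp9 the other 8 summed to 3461 to 5272 and 4559 to 5822, which overlap, and the list's median difference was 0.07 over 6 tested genes.

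**Figure D4:**
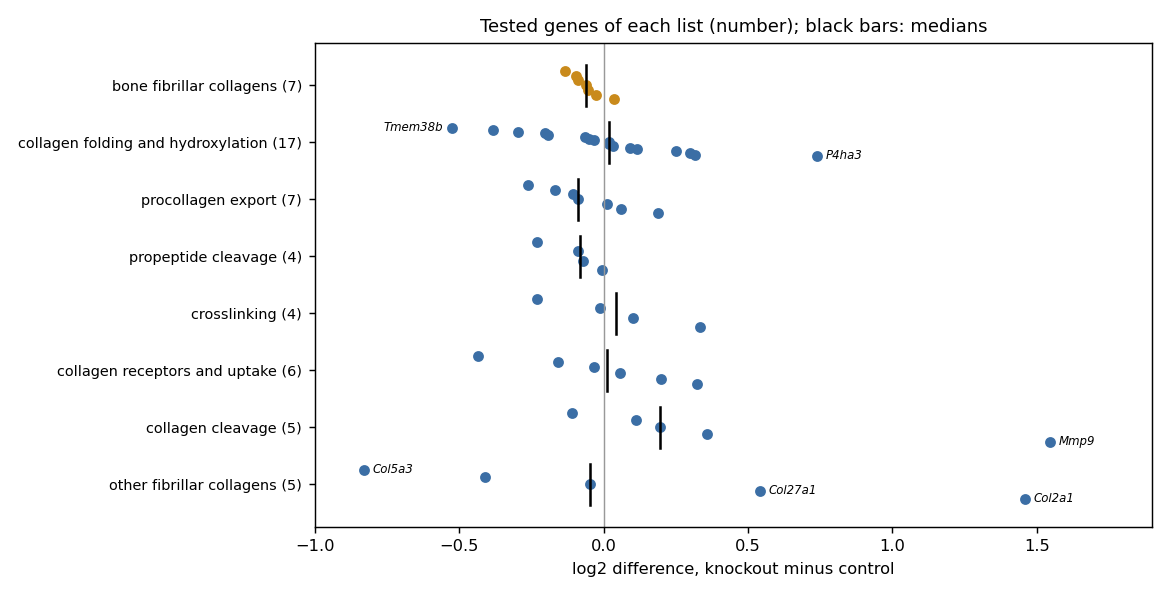
Log2 difference, knockout minus control (x axis), of each tested gene in the bone fibrillar collagens and in 7 lists of other collagen genes and collagen-handling genes, with the number tested in brackets and black bars for medians. The 7 bone fibrillar collagens lie between -0.13 and 0.04, and Mmp9, Col2a1, P4ha3 and Col5a3 lie farthest from 0.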

How the data were processed

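Total RNA of 6 sorted osteocyte samples, 3 per genotype, was measured on Affymetrix GeneChip arrays. The authors deposited 1 linear intensity per probe set and array. They were made with GCOS, per the submitters' processing notes. The sources used here do not give its background correction, probe summary or scaling. Of 45101 probe sets, 64 controls were left out. The platform annotation gave 1 gene for 34945, several for 932 and none for 9160, and 34741 took their current symbol from RefSeq.

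From these values log2(signal + 16) was computed and quantile normalised. The brightest probe set stood for a gene, and the lowest 40% of genes, and separately of probe sets, by mean level were left out. Genotypes were then compared in R 4.3.3 using limma 3.58.1 (lmFit, eBayes with trend, 2-sided, Benjamini-Hochberg at 0.05) over all 10916 genes or 27023 probe sets, with no covariate. The fit was tested on simulated data. Detection calls were not used, and the number of arrays limits the precision.

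The named genes were the 7 collagens with all their probe sets, Esr1, the 2 genes most like each collagen by Pearson's r, and the 2 of smallest p in each list of collagen genes. The other genes of the 5 further fibrillar collagens, and P4ha1 and P4ha2, were named after their values were seen. Members and lists were chosen with earlier results of these data known. Alternatives were other scalings, pseudocounts, filters, eBayes without trend, array weights, the mean of all probe sets, a replicate block and leaving out each array.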

Additional observations from a re-analysis of the deposited data

How the results depend on the processing

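In the 7 collagen genes and their 16 probe sets no adjusted p (limma) was under 0.05 under any alternative run, all planned; the lowest was 0.307, for 1450857_a_at of Col1a2 without control replicate 1. The sign of such small differences was not stable. With the deposited scaling, which moves the median of all genes to 0.14, Col1a1 lay at 0.089, Col1a2 at 0.036, Col5a1 at 0.13, Col5a2 at 0.036, Col22a1 at 0.081 and Col24a1 at 0.096, and Pcolce at 0.086. The probe sets 1416741_at (0.032), 1423669_at (0.022), 1427884_at (0.087), 1446326_at (0.097), 1446851_at (0.088) and 1450625_at (0.11) also turned, as did the Col24a1 to Col1a1 ratio (0.0080, and 0.013 with median scaling). Col3a1 lay at -0.033 with median scaling and -0.019 as the mean of all its probe sets, and its r with Sorbs3 and Scrib turned to -0.77 each with median scaling. The deposited scaling called 30 genes higher and 70 probe sets. The causes were not tested.

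Leaving out each array gave -0.087 to 0.0038 for Col1a1, -0.0093 to 0.058 for Col3a1, -0.069 to 0.034 for Col5a1, -0.16 to 0.028 for Col22a1 and -0.16 to 0.075 for Col24a1. For probe sets it gave -0.18 to 0.011 (1416741_at), -0.16 to 0.018 (1427884_at), -0.030 to 0.062 (1434479_at), -0.13 to 0.075 (1446851_at) and -0.10 to 0.036 (1450625_at). Ratios to Col1a1 ran from -0.013 to 0.15 for Col3a1, -0.052 to 0.11 for Col5a1, -0.097 to 0.062 for Col22a1 and -0.11 to 0.11 for Col24a1. Signs turned without knockout replicate 3 for Col1a1 and Col3a1, without knockout replicate 1 for Col5a1 and without control replicate 2 for Col22a1 and Col24a1. Calls ran from 0 to 86 genes higher, 0 to 210 lower and 0 to 520 probe sets, the highest of each without control replicate 2; 1 probe set was called without control replicate 1 or 3, and 2 without knockout replicate 3.

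Same-numbered arrays did not deviate together (r = -0.38, 0.10 and -0.04 for replicates 1, 2 and 3), beside -0.34 to 0.43 for arrays of different numbers. With 3 arrays per group these values cannot show whether the numbers pair the samples. With the replicate block 0 genes and 0 probe sets were called, and Col1a2 kept its difference of -0.09 (limma, adjusted p = 0.760). Whether signals near the top of the arrays limit what Col1a1, Col1a2, Col3a1 and Col5a2 can show was not tested.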
